A study of Mus musculus with 4 samples.

Results

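DNA replication and S phase genes were examined in mouse Treg cells, which are regulatory CD4 T cells that express Foxp3 and hold other lymphocytes in check. The set held 50 genes, taken by symbol from the 19044 genes of a raw read count table. They comprised 10 genes of origin licensing, 6 of helicase activation, 15 of polymerases, clamp and Okazaki processing, 5 of nucleotide supply, 2 of chromatin assembly, 6 E2F factors and E cyclins, and 6 of fork protection and checkpoint signalling. The rule names symbols by role and uses no measured value, but the members were chosen with earlier results of these data known.

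Before a cell copies its genome, the origin recognition complex, CDC6 and CDT1 load the MCM2-7 helicase onto DNA in G1, which is called licensing. In S phase CDC45 and the GINS complex join the helicase, polymerases alpha, delta and epsilon copy the strands around the sliding clamp PCNA, and ribonucleotide reductase supplies deoxynucleotides. Many of these genes are transcribed through E2F factors, which the RB family holds in check until G1 kinases act. In Treg cells a share of cells divides without immunization, and dividing cells are commonly found among activated Treg cells.

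The study gave 4 RNA-seq libraries of Treg cells from spleen and peripheral lymph nodes of untreated mice. The 2 libraries labelled KO, 1 of aTreg and 1 of rTreg, came from Ripk1fl/fl Foxp3-YFP-Cre mice, in which a Cre recombinase fused to yellow fluorescent protein and driven by Foxp3 can delete floxed Ripk1 in Foxp3-expressing cells. The 2 WT libraries, 1 of aTreg and 1 of rTreg, came from Foxp3-YFP-Cre mice, so that both genotypes carried the Cre allele. The labels do not spell out a and r, which in this field stand for activated and resting. The sort gate, and the age, sex, number and pooling of the mice, were not given in the sources used here. Each group was 1 library, so ratios between libraries have no replicate and are given with 95% counting intervals in brackets, which cover counting error only. Since the libraries are bulk samples, more cells in S phase and more mRNA per cell cannot be told apart.

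Depth was 17588754 to 20868319 counts per library, so that a count of 0 allows up to 3 counts, or 0.143 to 0.17 CPM (a gene's count relative to the TMM-adjusted size of its library). Ripk1 was at 80.8 and 84.7 CPM in KO-labelled aTreg and rTreg, against 77.5 and 83.6 CPM in WT aTreg and rTreg, and edgeR's quasi-likelihood test gave an adjusted p of 0.659. Whole-gene counts do not show whether the floxed exons were lost, and exon counts were not analysed here, so these libraries are called KO-labelled throughout. Foxp3 was at 658 and 619 CPM in KO-labelled aTreg and rTreg, against 694 and 688 CPM in WT aTreg and rTreg, and the 6 Treg markers summed to 3071 to 3430 CPM in all libraries. Xist, the X-inactivation RNA of female cells, was at 0.213 and 0.284 CPM in KO-labelled aTreg and rTreg, against 338 and 299 CPM in WT aTreg and rTreg. Ddx3y, a Y-linked gene, was at 112 and 126 CPM in KO-labelled aTreg and rTreg, against 97.5 and 121 CPM in WT aTreg and rTreg. Genotype and the sex makeup of the libraries cannot be told apart, which touches every genotype comparison here.

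Sums of markers of other cell types also differed between genotypes for some types. The 7 erythroid markers summed to 12.2 and 11.3 CPM in KO-labelled aTreg and rTreg, against 1.99 and 1.05 CPM in WT aTreg and rTreg, where 4 of the 7 were at 0 in WT rTreg. The 6 plasma cell markers summed to 72.6 and 48.7 CPM in KO-labelled aTreg and rTreg, against 41.6 and 17.4 CPM in WT aTreg and rTreg. Most of that sum was Prdm1, which effector Treg cells also express. The 5 other plasma cell markers summed to 4.16 and 4.71 CPM in KO-labelled aTreg and rTreg, against 2.91 and 2.48 CPM in WT aTreg and rTreg. The 10 B cell markers summed to 739 and 780 CPM in KO-labelled aTreg and rTreg, against 616 and 363 CPM in WT aTreg and rTreg. Ighm gave most of this sum, with 689 and 732 CPM in KO-labelled aTreg and rTreg, against 579 and 343 CPM in WT aTreg and rTreg. Igkc had the largest genotype ratios of the 10. It had 300 and 365 counts in KO-labelled aTreg and rTreg, against 31 and 21 counts in WT aTreg and rTreg. Without the 3 immunoglobulin genes, the 7 remaining B cell markers summed to 22.9 and 18.1 CPM in KO-labelled aTreg and rTreg, against 25.98 and 15.5 CPM in WT aTreg and rTreg, and Ms4a1 (CD20) was at 0 in KO-labelled aTreg. The 3 NK cell markers in the table summed to 8.05 and 7.61 CPM in KO-labelled aTreg and rTreg, against 3.06 and 3.002 CPM in WT aTreg and rTreg. Eomes gave most of that difference, with 5.97 and 6.98 CPM in KO-labelled aTreg and rTreg, against 0.583 and 1.57 CPM in WT aTreg and rTreg. Klrb1c was lower in KO-labelled than in WT libraries in both states. Klrd1 was higher in KO-labelled aTreg and lower in KO-labelled rTreg than in WT. The 4 dendritic cell markers in the table summed to 5.38 and 3.12 CPM in KO-labelled aTreg and rTreg, against 3.01 and 0.953 CPM in WT aTreg and rTreg. The 9 myeloid markers summed to 16.3 and 21.3 CPM in KO-labelled aTreg and rTreg, against 14.3 and 14.4 CPM in WT aTreg and rTreg. The 2 CD8 genes summed to 7.82 to 12.9 CPM over the 4 libraries. The part of any of these cells in the replication gene levels was not tested.

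The replication genes were higher in both KO-labelled libraries. The 50 genes together took 4189 and 4277 CPM in KO-labelled aTreg and rTreg, against 1807 and 2119 CPM in WT aTreg and rTreg. For each of the 50, the lower of both KO-labelled libraries lay above the higher of both WT libraries, an order that 33.2% of all tested genes had. Of the 50 genes, 49 passed the level minimum of a mean of 5 CPM over the 4 libraries, among 9680 genes that did. With state and genotype as additive terms, edgeR's quasi-likelihood test at a Benjamini-Hochberg adjusted p of 0.05 called all 49 as having risen with genotype and none as having fallen, where it called 24.4% of all tested genes as having risen and 22.8% as having fallen. The genotype log2 change, where 1 is a 2-fold difference, had a median of 1.22 over the 49 and ran from 0.36 to 2.30, where all tested genes had a median of 0.00. This fit leaves 1 residual degree of freedom, which is the difference of the genotype ratio between the states. Its p-values thus count any such difference as scatter. They reflect only how far these 4 libraries scatter, which may be technical. With genotype alone and KO-labelled aTreg or KO-labelled rTreg left out, edgeR called none of the 49 members and no tested gene as having risen, although 49 and 47 members were higher at an unadjusted p under 0.05, beside 12.6% and 14.1% of tested genes.

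**Figure D1:**
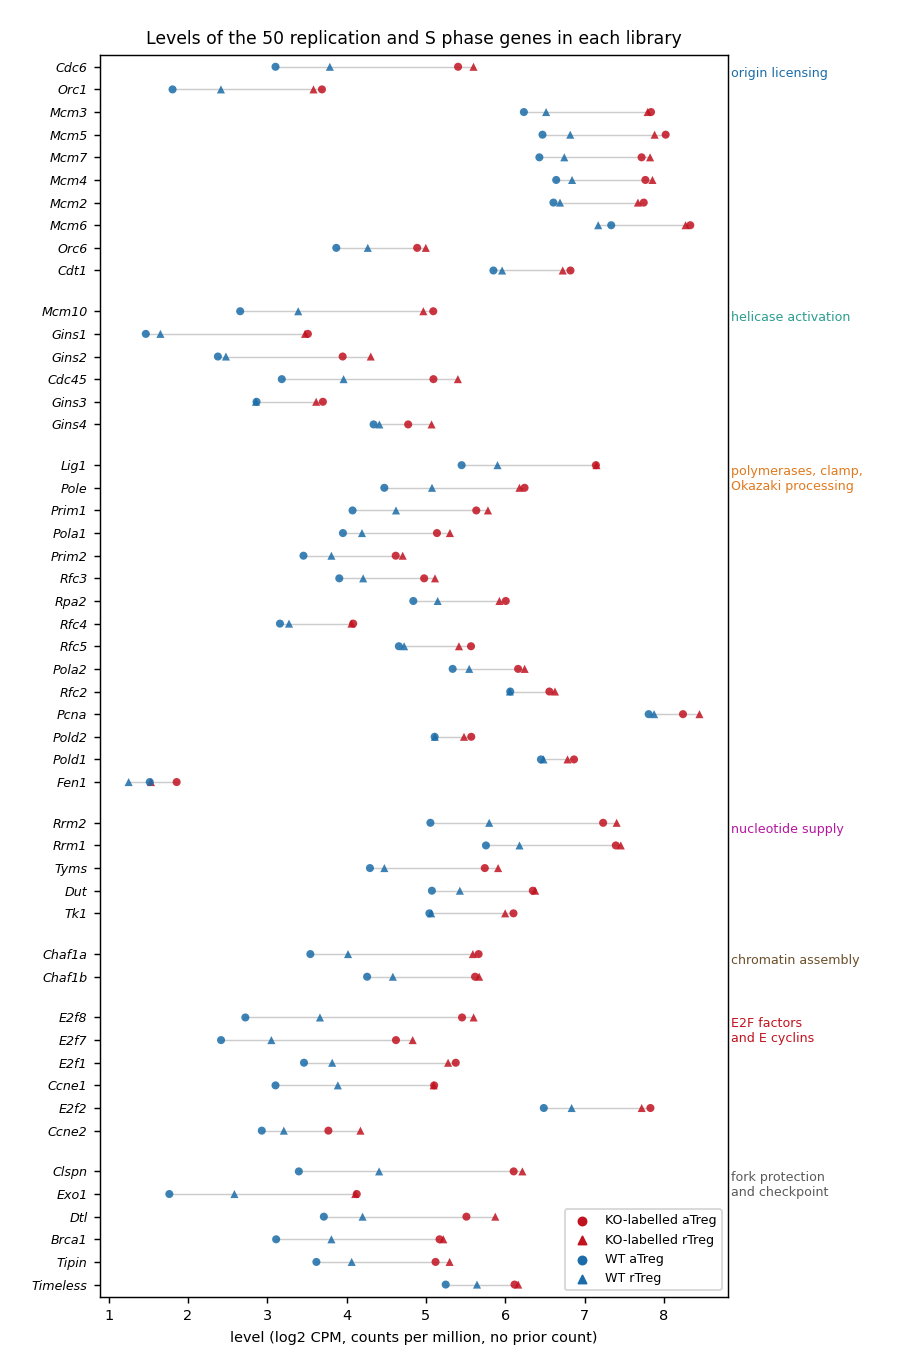
Level of each of the 50 genes in each library (log2 CPM, horizontal axis), grouped by role and ordered by genotype change within a role; circles are aTreg, triangles rTreg, red KO-labelled and blue WT. Both red symbols lie to the right of both blue ones in all 50 genes, by least in Fen1.

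E2f8, E2f7 and E2f1 led the E2F factors and E cyclins, the group that drives or restrains S phase transcription. E2f8, an atypical E2F that represses E2F target genes, was at 43.9 and 48.5 CPM in KO-labelled aTreg and rTreg, against 6.60 and 12.7 CPM in WT aTreg and rTreg. It had the largest genotype change of the 50, a log2 change of 2.30 (standard error, SE, 0.160; edgeR adjusted p = 3.31e-07), or 4.92-fold. E2f7, the second atypical repressor, was at 24.6 and 28.5 CPM in KO-labelled aTreg and rTreg, against 5.34 and 8.29 CPM in WT aTreg and rTreg, and rose by 1.98 (SE 0.156, edgeR adjusted p = 8.11e-07). E2f1, an activator, was at 41.5 and 38.8 CPM in KO-labelled aTreg and rTreg, against 11.02 and 14.1 CPM in WT aTreg and rTreg, and rose by 1.68 (SE 0.130, edgeR adjusted p = 7.00e-07). Both repressors and both activators of the group thus rose, E2f2 by 1.11 (SE 0.0924). Ccne1 and Ccne2 encode the E cyclins that activate CDK2 at S phase entry, and rose by 1.58 (SE 0.164) and 0.90 (SE 0.161). Ccne2 was the least changed of the 6, at 13.6 and 18.1 CPM in KO-labelled aTreg and rTreg, against 7.62 and 9.24 CPM in WT aTreg and rTreg.

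The promoters of the 6 members with the largest genotype change among the 40 members with an entry are shown so that their E2F words can be compared. They are RefSeq entries on GRCm38.p6, 250 bases before to 50 bases after an annotated start, printed 5′ to 3′ on the strand of the gene. Capitals mark any match to the E2F words TTTCCCGC, TTTCGCGC, TTTGCCGC and TTTGGCGC or their reverse complements. The entries are E2f8 at chr7:48881547-48881846 (minus strand), Clspn at chr4:126556730-126557029 (plus), Cdc6 at chr11:98907901-98908200 (plus), Mcm10 at chr2:5012742-5013041 (minus), E2f7 at chr10:110745189-110745488 (plus) and Rrm2 at chr12:24708004-24708303 (plus).
E2f8: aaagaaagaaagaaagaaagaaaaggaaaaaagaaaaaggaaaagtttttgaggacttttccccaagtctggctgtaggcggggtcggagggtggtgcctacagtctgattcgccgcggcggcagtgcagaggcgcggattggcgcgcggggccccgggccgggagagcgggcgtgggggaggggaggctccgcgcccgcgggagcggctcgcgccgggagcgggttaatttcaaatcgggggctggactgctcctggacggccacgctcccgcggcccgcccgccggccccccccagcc
Clspn: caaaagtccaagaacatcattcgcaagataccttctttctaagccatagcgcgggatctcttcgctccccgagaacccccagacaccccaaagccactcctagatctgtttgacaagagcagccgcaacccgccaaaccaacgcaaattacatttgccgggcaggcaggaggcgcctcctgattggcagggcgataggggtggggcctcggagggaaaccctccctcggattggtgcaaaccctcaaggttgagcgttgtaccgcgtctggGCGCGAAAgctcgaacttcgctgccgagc
Cdc6: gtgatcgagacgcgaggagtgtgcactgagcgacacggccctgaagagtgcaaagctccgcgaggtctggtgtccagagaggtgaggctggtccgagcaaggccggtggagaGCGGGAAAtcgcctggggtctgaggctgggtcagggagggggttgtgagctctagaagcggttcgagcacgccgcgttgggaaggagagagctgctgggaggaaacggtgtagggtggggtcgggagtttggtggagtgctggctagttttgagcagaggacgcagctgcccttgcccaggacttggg
Mcm10: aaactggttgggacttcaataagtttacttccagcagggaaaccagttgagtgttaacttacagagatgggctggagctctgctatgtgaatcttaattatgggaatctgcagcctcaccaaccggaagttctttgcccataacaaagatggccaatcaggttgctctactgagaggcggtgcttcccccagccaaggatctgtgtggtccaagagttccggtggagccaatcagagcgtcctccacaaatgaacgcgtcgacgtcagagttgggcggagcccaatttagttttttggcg
E2f7: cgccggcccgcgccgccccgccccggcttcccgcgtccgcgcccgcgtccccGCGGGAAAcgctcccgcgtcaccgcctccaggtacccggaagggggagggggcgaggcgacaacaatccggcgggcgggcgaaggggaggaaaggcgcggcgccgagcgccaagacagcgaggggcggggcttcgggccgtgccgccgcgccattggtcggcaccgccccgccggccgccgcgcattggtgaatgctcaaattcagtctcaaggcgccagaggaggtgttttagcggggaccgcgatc
Rrm2: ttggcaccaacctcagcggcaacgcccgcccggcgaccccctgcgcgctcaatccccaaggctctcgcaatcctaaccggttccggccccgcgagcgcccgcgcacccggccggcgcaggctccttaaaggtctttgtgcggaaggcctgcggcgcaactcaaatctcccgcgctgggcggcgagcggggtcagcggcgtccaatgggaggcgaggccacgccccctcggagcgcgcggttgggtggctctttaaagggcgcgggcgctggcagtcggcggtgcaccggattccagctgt

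Clspn, Cdc6 and E2f7 each held 1 such word. GCGCGAAA began at base 22 from the start in Clspn, and GCGGGAAA began 138 bases before the start in Cdc6 and 198 bases before it in E2f7. In E2f8, Mcm10 and Rrm2 these exact letters did not occur in the window, which says nothing of the factor. Over the 40 members with an entry, 16 of 46 promoters (34.8%) held an E2F word, against 4.26% of 9846 promoters of tested genes and 2.26% of all 32851 promoters of the table. The CCAAT box, searched as CCAAT on both strands, occurred in 58.7% of the member promoters, against 37.7% of those of tested genes and 37.4% of all. The cell cycle homology region, searched as TTTGAA on both strands, occurred in 15.2% of the member promoters, against 12% and 17.9%. The median GC content was 59% in the members' promoters, 61% in those of tested genes and 52.7% in all. The words of one class can overlap each other, and a match is a description of letters, not a binding site.

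**Figure D2:**
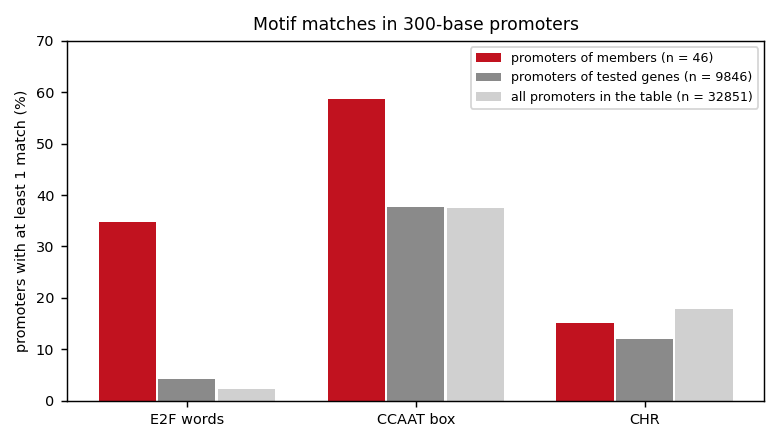
Share of promoters with at least 1 match (%, vertical axis) to E2F words, the CCAAT box and the cell cycle homology region (CHR), for promoters of the members, of tested genes and of all genes in the table. E2F words occur in 34.8% of member promoters, 4.26% of those of tested genes and 2.26% of all.

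Among the 9 origin licensing genes with an entry, 7 held an E2F word, namely Orc1, Cdc6, Cdt1, Mcm3, Mcm5, Mcm6 and Mcm7. Their words are shown with 10 bases on either side, for the first match of each gene other than Cdc6 (above), on the strand of the gene and on GRCm38.p6. The windows are Orc1 at chr4:108579417-108579444 (plus), Cdt1 at chr8:122568037-122568064 (plus), Mcm3 at chr1:20820276-20820303 (minus), Mcm5 at chr8:75109346-75109377 (plus), Mcm6 at chr1:128359794-128359825 (minus) and Mcm7 at chr5:138172031-138172058 (minus). Capitals in Mcm5 and Mcm6 cover 2 overlapping words. These genes were picked for display after their values were seen.
Orc1: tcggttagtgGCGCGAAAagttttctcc
Cdt1: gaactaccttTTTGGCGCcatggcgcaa
Mcm3: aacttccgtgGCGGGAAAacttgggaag
Mcm5: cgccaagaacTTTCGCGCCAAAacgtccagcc
Mcm6: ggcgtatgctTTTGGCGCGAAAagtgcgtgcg
Mcm7: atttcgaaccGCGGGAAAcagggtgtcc

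All 10 licensing genes rose with genotype, by a median of 1.13 and between 0.87 and 2.04. Cdc6, which with the origin recognition complex loads the helicase, was at 42.4 and 48.5 CPM in KO-labelled aTreg and rTreg, against 8.60 and 13.8 CPM in WT aTreg and rTreg, and rose by 2.04 (SE 0.132, edgeR adjusted p = 2.07e-07). Orc1, the largest subunit of the origin recognition complex, was at 12.9 and 12.0 CPM in KO-labelled aTreg and rTreg, against 3.497 and 5.34 CPM in WT aTreg and rTreg, and rose by 1.51 (SE 0.221, edgeR adjusted p = 0.000120). Orc6, another subunit, rose by 0.87 (SE 0.122). Among the 6 helicase subunits the genotype change was closer together, from 1.05 in Mcm6 to 1.44 in Mcm3. Mcm3 was at 229 and 222 CPM in KO-labelled aTreg and rTreg, against 75.3 and 91.4 CPM in WT aTreg and rTreg (SE 0.0804, edgeR adjusted p = 9.49e-08). Cdt1, which brings the MCM ring to the origin, changed least of the 10, with 113 and 106 CPM in KO-labelled aTreg and rTreg, against 57.7 and 62.2 CPM in WT aTreg and rTreg, a log2 change of 0.87 (SE 0.0733). The 2 helicase loaders thus stood at opposite ends of their group.

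Helicase activation genes rose in all 6 cases, by a median of 1.68, and spanned 0.55 to 1.98. Mcm10, which acts at helicase firing, was at 34.1 and 31.3 CPM in KO-labelled aTreg and rTreg, against 6.31 and 10.48 CPM in WT aTreg and rTreg, and rose by 1.98 (SE 0.177, edgeR adjusted p = 2.36e-06). Cdc45, the helicase cofactor, was at 34.2 and 42.3 CPM in KO-labelled aTreg and rTreg, against 9.08 and 15.6 CPM in WT aTreg and rTreg, and rose by 1.66 (SE 0.133). The 4 GINS subunits form 1 complex but differed in size of change. Gins1 rose by 1.93 (SE 0.218, edgeR adjusted p = 1.48e-05) and Gins2 by 1.70 (SE 0.174, edgeR adjusted p = 6.94e-06), whereas Gins3 rose by 0.80 (SE 0.176) and Gins4 by 0.55 (SE 0.115). Gins4 was at 27.4 and 33.6 CPM in KO-labelled aTreg and rTreg, against 20.3 and 21.3 CPM in WT aTreg and rTreg. Gins2 shares 67.3% of its exon bases with Gse1 on the opposite strand, and whether reads were counted by strand is not given in the sources used here.

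The polymerase, clamp and Okazaki genes changed least as a group, with a median of 0.91 over 14 tested genes and a range of 0.36 to 1.46; all 14 rose. Lig1, the ligase that joins Okazaki fragments, was at 141 and 142 CPM in KO-labelled aTreg and rTreg, against 43.7 and 59.8 CPM in WT aTreg and rTreg, and rose by 1.46 (SE 0.0923, edgeR adjusted p = 1.74e-07). Pole, the catalytic subunit of the leading strand polymerase epsilon, was at 75.7 and 72.4 CPM in KO-labelled aTreg and rTreg, against 22.2 and 33.7 CPM in WT aTreg and rTreg, and rose by 1.42 (SE 0.125, edgeR adjusted p = 1.94e-06). Prim1, the primase that starts each fragment, rose by 1.35 (SE 0.113), and its partners Pola1, Prim2 and Pola2 rose by 1.15, 1.03 and 0.76. The clamp loader subunits Rfc2 to Rfc5 rose by 0.53 to 0.99 and Rpa2, of the single-strand binding complex, by 0.97.

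At the low end of this group stood the polymerase delta subunits and the clamp itself. Pold1, the catalytic subunit of polymerase delta, was at 117 and 110 CPM in KO-labelled aTreg and rTreg, against 87.4 and 89.3 CPM in WT aTreg and rTreg, a log2 change of 0.36 (SE 0.0673, edgeR adjusted p = 0.000754). Pold2, its accessory subunit, rose by 0.41 (SE 0.0918, edgeR adjusted p = 0.00250), and is the 1 tested member that DESeq2 with the same terms did not call, beside 14.2% of tested genes called as having risen and 12% as having fallen. Pcna was at 302 and 349 CPM in KO-labelled aTreg and rTreg, against 224 and 235 CPM in WT aTreg and rTreg, and rose by 0.50 (SE 0.0690). These 3 also act in DNA repair, as does the nuclease Exo1, which rose by 1.91. Whether that role bears on the size of change was not tested. Fen1, the flap nuclease, did not reach the level minimum, with 68 and 51 counts in KO-labelled aTreg and rTreg, against 59 and 50 counts in WT aTreg and rTreg. Its log2 ratios of KO-labelled over WT were 0.33 [−0.19 to 0.87] in aTreg and 0.27 [−0.31 to 0.87] in rTreg, both with 0 inside the interval. Fen1 shares 84.2% of its exon bases with other genes on the opposite strand, so its counts may be incomplete.

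Nucleotide supply genes all rose, by a median of 1.44 and between 0.996 and 1.88. Rrm2, the subunit that limits ribonucleotide reductase in cycling cells, was at 150 and 169 CPM in KO-labelled aTreg and rTreg, against 33.3 and 55.6 CPM in WT aTreg and rTreg, and rose by 1.88 (SE 0.106, edgeR adjusted p = 9.79e-08). Its partner Rrm1 was at 168 and 176 CPM in KO-labelled aTreg and rTreg, against 54.1 and 72.5 CPM in WT aTreg and rTreg, and rose by 1.45 (SE 0.0837). Tyms, which makes thymidylate, rose by 1.44 (SE 0.0953), Dut, which removes dUTP, by 1.11 (SE 0.0876), and Tk1, the salvage thymidine kinase, by 0.996 (SE 0.0841). The large subunits of the histone chaperone CAF-1, Chaf1a and Chaf1b, rose by 1.84 (SE 0.132) and 1.22 (SE 0.106). Chaf1a was at 50.7 and 48.2 CPM in KO-labelled aTreg and rTreg, against 11.7 and 16.2 CPM in WT aTreg and rTreg, and shares 52.5% of its exon bases with Ubxn6 on the opposite strand.

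Fork protection and checkpoint genes had the highest group median, 1.72, and all 6 rose. Clspn, the adaptor through which ATR activates CHK1, was at 68.9 and 74.3 CPM in KO-labelled aTreg and rTreg, against 10.54 and 21.3 CPM in WT aTreg and rTreg, and rose by 2.22 (SE 0.157, edgeR adjusted p = 3.59e-07). Exo1, a resection and repair nuclease, was at 17.5 and 17.3 CPM in KO-labelled aTreg and rTreg, against 3.4 and 6.004 CPM in WT aTreg and rTreg, and rose by 1.91 (SE 0.211, edgeR adjusted p = 1.28e-05). Dtl, the ubiquitin ligase adaptor that removes CDT1 in S phase, was at 45.6 and 58.6 CPM in KO-labelled aTreg and rTreg, against 13.1 and 18.4 CPM in WT aTreg and rTreg, and rose by 1.73 (SE 0.105, edgeR adjusted p = 1.42e-07). Brca1, of homologous recombination, rose by 1.72 (SE 0.150). The fork protection pair Tipin and Timeless rose unequally, Tipin by 1.36 (SE 0.119) and Timeless by 0.69 (SE 0.0902), with Timeless at 69.4 and 71.6 CPM in KO-labelled aTreg and rTreg, against 38.03 and 49.98 CPM in WT aTreg and rTreg.

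Levels of different genes were compared per kilobase of exon. Pcna was the highest of the 50, with 126 and 146 CPM per kb in KO-labelled aTreg and rTreg, against 93.4 and 97.9 CPM per kb in WT aTreg and rTreg. Mcm6 came next, with 69.1 and 66.3 CPM per kb in KO-labelled aTreg and rTreg, against 34.6 and 30.9 CPM per kb in WT aTreg and rTreg, followed by Mcm4, Mcm5, Mcm3 and Rrm2 in order of the mean of the 4 libraries. The lowest were Fen1, Exo1 and E2f7, with means of 1.21, 1.31 and 1.85 CPM per kb. The clamp thus combined the highest level with 1 of the smaller genotype changes, and E2f7 a low level with 1 of the larger ones.

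Within aTreg, KO-labelled over WT, the 49 tested members had a median log2 ratio of 1.36 (0.42 to 2.71), and 36 were at least 2-fold higher, beside 3.95% of all tested genes. Within rTreg the median was 1.10 (0.30 to 1.93), and 29 were at least 2-fold higher, beside 3.41% of all tested genes. In both states 28 of the 49 passed 2-fold, where 2.69% of tested genes did, and none was 2-fold lower in either state, a direction taken by 2.17% in aTreg and 1.34% in rTreg. By role, at least 2-fold higher in aTreg and in rTreg were 8 and 7 of 10 licensing genes, 4 and 4 of 6 helicase activation genes and 7 and 4 of 14 polymerase, clamp and Okazaki genes. The counts were 5 and 3 of 5 nucleotide supply genes, both chromatin assembly genes in each state, 5 and 4 of 6 E2F factors and E cyclins, and 5 and 5 of 6 fork protection and checkpoint genes. E2f8 had a ratio of 2.71 [2.47 to 3.004] in aTreg and 1.93 [1.74 to 2.14] in rTreg. Cdc6 had 2.29 [2.06 to 2.55] in aTreg and 1.80 [1.62 to 2.01] in rTreg, and Pold1 0.42 [0.33 to 0.51] in aTreg and 0.30 [0.21 to 0.40] in rTreg. The counting interval lay above 0 for all 49 members in both states, beside 35% of tested genes in aTreg and 34.3% in rTreg, and below 0 for none, beside 34.3% in aTreg and 32.9% in rTreg. Over the 49 members the ratios in aTreg and in rTreg, computed from separate libraries, had a Pearson correlation of 0.91, beside 0.868 over all tested genes.

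**Figure D3:**
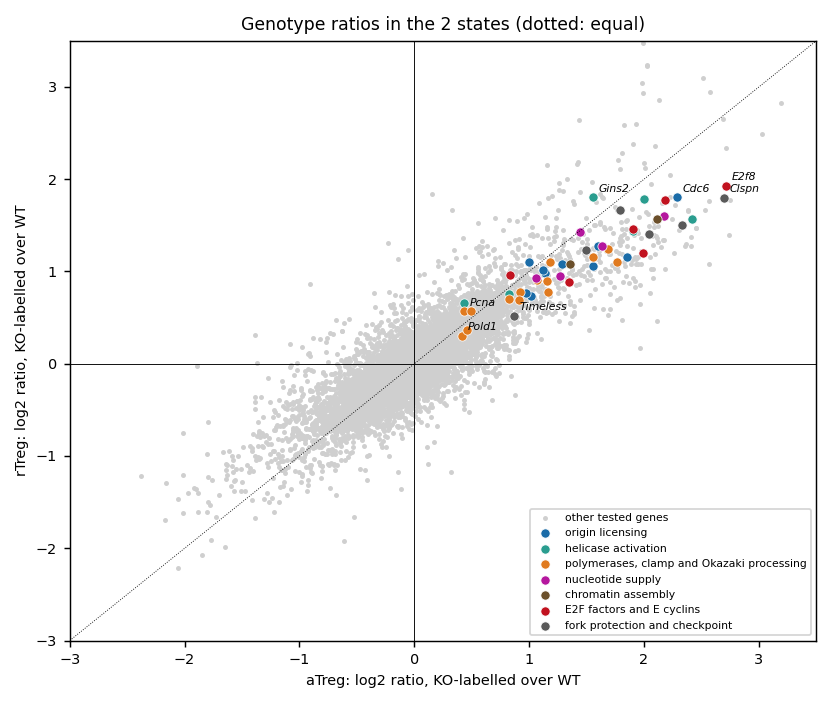
Log2 ratio of KO-labelled over WT in aTreg (horizontal axis) and in rTreg (vertical axis) for the 49 tested members by role, with all other tested genes in grey (11 tested genes lie outside the axes). All members lie above 0 on both axes, from Pold1 to E2f8, and most lie below the dotted line of equal ratios.

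State ratios, aTreg over rTreg, were taken within each genotype. In WT the aTreg library had lower levels than the rTreg library for 46 of 49 members, with a median log2 ratio of −0.35 (−1.005 to 0.16), where 49.8% of tested genes were below 0. The counting interval lay below 0 for 34 of the 49, beside 25.1% of tested genes, and above 0 for 1, Mcm6 (0.16 [0.09 to 0.24]), beside 25.4%. In the KO-labelled genotype the median was −0.05 (−0.40 to 0.15), with 28 members below 0, beside 49.3% of tested genes. There the interval lay below 0 for 16 members and above 0 for 6, beside 23% and 25.7% of tested genes. Clspn was the 1 member at least 2-fold lower in aTreg of WT, at −1.005 [−1.25 to −0.77], where 0.723% of tested genes passed, and none was 2-fold higher, beside 1.87%. No member was 2-fold apart between states of the KO-labelled genotype, where 0.95% of tested genes were higher and 0.134% lower in aTreg.

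The difference of the state ratios, KO-labelled minus WT, equals the difference of the genotype ratios, aTreg minus rTreg. It was above 0 for 43 of 49 members, beside 50.1% of tested genes, with a median of 0.27. Its approximate counting interval lay above 0 for 29 members, beside 16.8% of tested genes, and below 0 for 2, Mcm6 and Pcna, beside 16.9%. The design leaves no degree of freedom to test it. Clspn differed most, with a state ratio of −0.11 in KO-labelled libraries against −1.005 in WT, a difference of 0.90 [0.64 to 1.15]. Mcm10 was at 0.12 in KO-labelled against −0.72 in WT, a difference of 0.85 [0.49 to 1.20]. Exo1 was at 0.02 in KO-labelled against −0.80 in WT (0.82 [0.34 to 1.30]) and Ccne1 at 0.01 in KO-labelled against −0.78 in WT (0.78 [0.47 to 1.10]). The WT aTreg library was the lowest of the 4 in each of these genes. At the other end Gins2 was at −0.35 in KO-labelled against −0.10 in WT (−0.25 [−0.69 to 0.19]) and Gins4 at −0.29 in KO-labelled against −0.07 in WT (−0.22 [−0.48 to 0.04]), both with 0 inside the interval. Over the 49 members the state ratios in KO-labelled and in WT, again from separate libraries, had a Pearson correlation of 0.19, beside 0.651 over all tested genes.

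**Figure D4:**
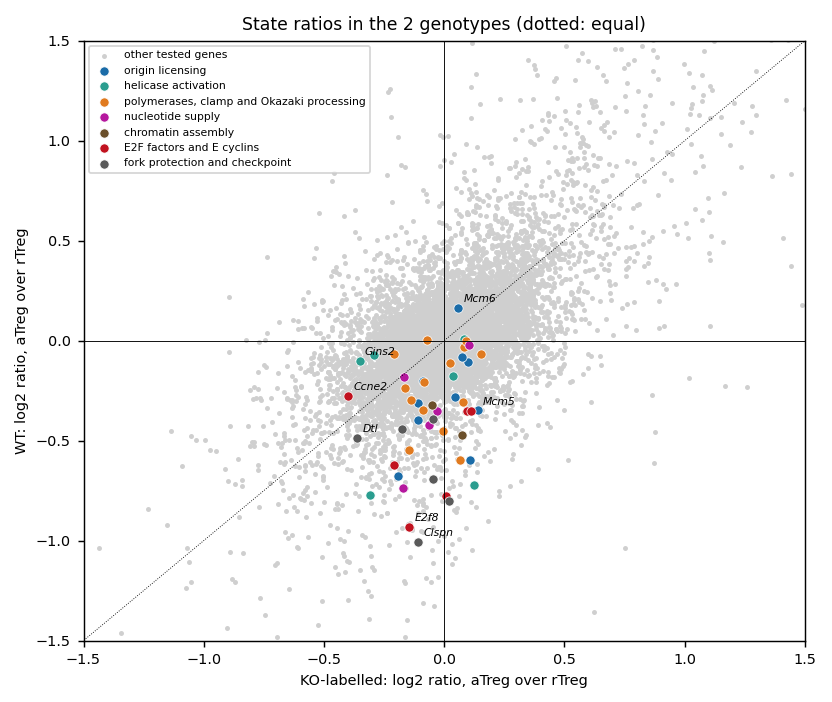
Log2 ratio of aTreg over rTreg in the KO-labelled genotype (horizontal axis) and in WT (vertical axis) for the 49 tested members by role, with all other tested genes in grey (72 tested genes lie outside the axes). Most members lie near 0 on the horizontal axis and below 0 on the vertical one, down to Clspn at −1.005 in WT.

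For state, the additive edgeR fit called 3 of 49 members as having fallen in aTreg and none as having risen, beside 5.44% and 7.91% of tested genes, so that the first count was near the background. At an unadjusted p under 0.05, 14 members were lower and none was higher, beside 12.2% and 14.2% of tested genes. The 3 called were Cdc45 (log2 change −0.51, SE 0.132, edgeR adjusted p = 0.0222), Rrm2 (−0.42, SE 0.104, edgeR adjusted p = 0.0171) and Dtl (−0.42, SE 0.104, edgeR adjusted p = 0.0177). Cdc45 had state ratios of −0.31 [−0.46 to −0.15] in the KO-labelled genotype and −0.77 [−1.05 to −0.52] in WT. E2f8 and Clspn, at −0.45 (SE 0.156) and −0.47 (SE 0.154), had edgeR adjusted p-values of 0.0779 and 0.0644. With the same terms DESeq2 called no member, with 5 lower at an unadjusted p under 0.05, beside 5.4% of tested genes. With library totals in place of TMM edgeR called 5 as having fallen, beside 6.37% of tested genes.

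Genes of neighbouring processes were taken from lists by function, and their counts are given beside the 24.4% of all tested genes that rose with genotype and the 22.8% that fell. Of 42 other tested replication factors, 33 rose with genotype, 1 fell and 8 were not called, with a median of 0.58. Pclaf, a PCNA-binding protein, rose by 1.995 (SE 0.127), Asf1b, a histone chaperone of cycling cells, by 1.82 (SE 0.112) and Uhrf1, which brings DNMT1 to new DNA, by 1.80 (SE 0.113). Pole4, a small subunit of polymerase epsilon, fell by 0.37 (SE 0.0819), and Orc3, Orc4, Orc5 and Asf1a were among those not called. Of 21 other nucleotide enzymes, 8 rose, 4 fell and 9 were not called, with a median of 0.16, so that the falling count was near the background. The mitochondrial kinases Dguok and Tk2 fell by 0.32 (SE 0.0982) and 0.31 (SE 0.0741).

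Of 29 RB family, E2F partner and G1/S kinase genes, 15 rose, 2 fell and 12 were not called, with a median of 0.20. Ccna2, the cyclin of S phase and G2, rose by 1.77 (SE 0.177), Mybl2 by 1.57 (SE 0.129) and Foxm1 by 1.39 (SE 0.134), the last 2 being transcription factors of later cell cycle genes. Cdkn1b, the CDK inhibitor p27 of resting cells, fell by 0.41 (SE 0.0697) and E2f5 by 0.69 (SE 0.212). Among the other tested CDK inhibitors of the list, Cdkn1a (p21) rose by 1.33 (SE 0.108) and Cdkn2c (p18) by 1.02 (SE 0.128). Cdkn2d (p19) was not called at −0.06. Cdkn2a, Cdkn2b and Cdkn1c did not reach the level minimum. Cdkn2a had 199 and 93 counts in KO-labelled aTreg and rTreg, against 15 and 14 in WT aTreg and rTreg. In the same order, Cdkn2b had 45 and 10 counts against 8 and 1, and Cdkn1c had 68 and 73 counts against 70 and 79. Rb1, Ccnd2, Ccnd3 and Myc were not called for genotype, with log2 changes of 0.04, 0.14, 0.15 and −0.17. Of 30 checkpoint and homologous recombination genes, 21 rose, 2 fell and 7 were not called, with a median of 0.66. Rad51ap1 and Fancd2, of recombination and crosslink repair, rose by 1.65 (SE 0.198) and 1.59 (SE 0.198), while the apical kinases Atr and Atm fell by 0.42 (SE 0.0902) and 0.31 (SE 0.0651).

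All 29 tested genes of mitosis rose with genotype, by a median of 1.47, beside 1.22 for the replication genes. Their median genotype ratio was 1.89 in aTreg and 1.08 in rTreg, and their median state ratio −0.10 in KO-labelled and −0.85 in WT libraries. The median difference of state ratios was 0.76, beside 0.27 for the replication genes. The difference between these lists was not tested. Birc5, the survivin gene, rose by 2.13 (SE 0.148), Ccnb2, a B cyclin, by 2.07 (SE 0.148) and Ska1, a kinetochore protein, by 1.99 (SE 0.301), while Cenpa, the centromeric histone, rose by 0.36 (SE 0.0729).

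**Figure D5:**
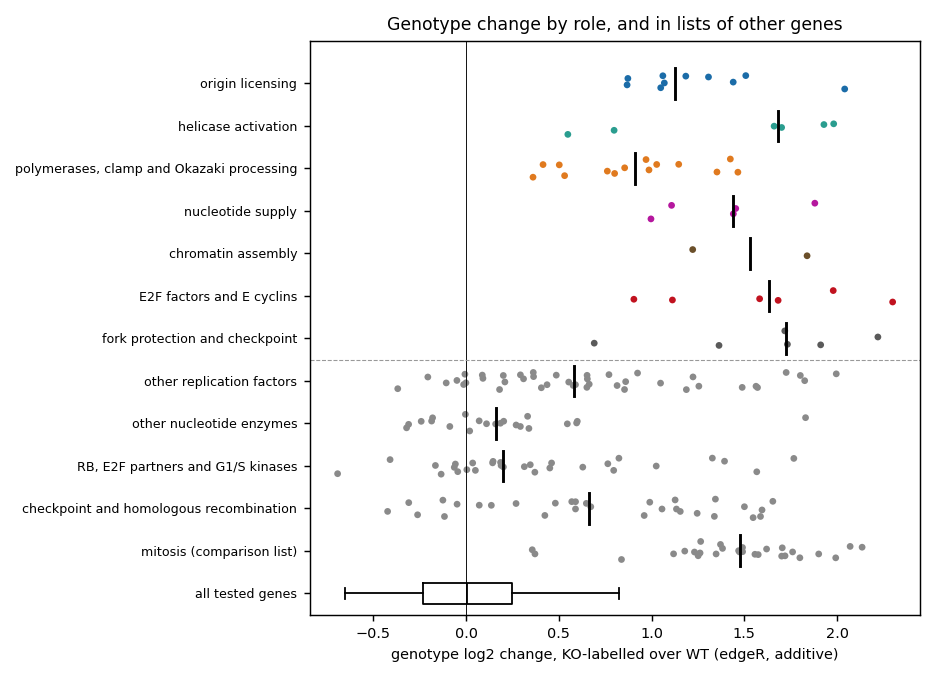
Genotype log2 change, KO-labelled over WT, from the additive edgeR fit (horizontal axis) for each tested gene of the 7 roles (coloured) and of 5 lists of other genes (grey), with a vertical bar at the median; the box shows the quartiles of all tested genes and its whiskers the 5th and 95th percentiles. All 49 members lie above 0, and role medians run from 0.91 for polymerases, clamp and Okazaki processing to 1.72 for fork protection and checkpoint.

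In the authors' deposited table, which compares genotypes with the states as replicates, 48 of the 50 genes were higher in the KO-labelled libraries at an adjusted p under 0.05 and none was lower, beside 9.61% and 7% of the 12398 genes with an adjusted p there. The authors' deposited table gives Pold2 an adjusted p of 0.0579 and Fen1 one of 0.738. It draws on the same 4 libraries as the values above. With genotype alone, edgeR called 48 of the 49 tested members as having risen and none as having fallen, beside 9.6% and 7.2% of tested genes.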

How the data were processed

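Messenger RNA of 4 Treg libraries was measured by RNA-seq. Per the labels' protocols, TRIzol was used for extraction and a SMARTer mRNA-seq kit for the libraries. The submitters' processing notes name HISAT2 2.2.1, featureCounts 2.0.1 and the build GRCm38. Annotation and strand setting: not given in the sources used here. The authors deposited raw read counts for 19044 gene symbols. A second deposited table holds variance-stabilised values on a log2-like scale and a log2 fold change, positive where WT is higher. Its mean normalized count is a signal, its test statistic a score, and its p-value and adjusted p-value those of the genotype comparison, per the file headers. DESeq2 on genotype alone gave the deposited log2 fold changes within 5.3e-05.

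Testing took the 9680 genes that averaged 5 CPM or more (99.31% of counts). Library sizes were scaled with TMM in edgeR 4.0.16 (R 4.3.3), with factors of 0.995 to 1.0057, and log2 ratios of 2 libraries used a prior count of 2. Intervals for ratios are exact binomial (Clopper-Pearson) intervals on counts without the prior count, and those for differences of ratios are normal approximations on counts. Genotype and state were tested with glmQLFit and glmQLFTest as additive terms, with 11.8 prior degrees of freedom and a biological coefficient of variation of 6.66%. Each SE is the absolute log2 change divided by the square root of the quasi-likelihood F statistic, and does not come from replicates within a group. The step was tested on simulated data. Alternatives were DESeq2 1.42.0, other scalings, level minimums, prior counts and fold thresholds, the deposited variance-stabilised values, single-factor fits and leaving out each library. The 3 other scalings moved the median ratio of all genes by at most 0.0516 (log2).

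Members and gene lists were chosen with earlier results of these data known. The naming rule took the 3 largest and the smallest genotype change of each role, the 4 largest state changes, the 4 largest and 2 smallest differences of state ratios, members not tested or not called, and 3 genes at each end of the called genes of each other list; a few of these are not reported here. Gse1, Ubxn6, Cdkn1a, Cdkn1c, Cdkn2a, Cdkn2b, Cdkn2c, Cdkn2d, the genes named as not called and the licensing windows were chosen after values were seen. The NK cell, plasma cell and B cell genes given singly were also picked from their lists after values were seen. Exon lengths, positions and overlaps came from GENCODE M21.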

Additional observations from a re-analysis of the deposited data

Results flagged for a closer look

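E2f2 and Mcm5 had state ratios of opposite sign in the genotypes, with both counting intervals off 0. E2f2, an activator E2F, had a log2 ratio of aTreg over rTreg of 0.11 [0.05 to 0.17] in the KO-labelled genotype and −0.35 [−0.44 to −0.26] in WT, with 227 CPM in aTreg against 211 CPM in rTreg of the KO-labelled genotype and 89.6 CPM in aTreg against 114 CPM in rTreg of WT. Mcm5, a helicase subunit, had 0.14 [0.08 to 0.20] in the KO-labelled genotype and −0.35 [−0.44 to −0.26] in WT, with 260 CPM in aTreg against 236 CPM in rTreg of the KO-labelled genotype and 88.6 CPM in aTreg against 113 CPM in rTreg of WT. With 1 library per group these differences were not tested. The 2 of 50 members (4%) with opposite signs compare with 317 of 9680 tested genes (3.27%) in either direction. In the direction of both members, higher in aTreg of KO-labelled and lower in aTreg of WT, there were 180 of 9680 tested genes (1.86%).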

How the results depend on the processing

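All 49 tested members rose with genotype in edgeR under each scaling, beside 21% to 24.4% of tested genes. With a lower or no level minimum 49 of 50 rose, Fen1 being the exception, beside 21.7% and 14.8% of tested genes. DESeq2 with the same terms called 48 (all but Pold2), and edgeR on genotype alone 48 (all but Gins4), beside 14.2% and 9.6% of tested genes. Leaving out each library in turn, with genotype alone, gave 0 to 45 rising members, 0 without KO-labelled aTreg or rTreg, where 49 and 47 had an unadjusted p under 0.05 (12.6% and 14.1% of tested genes) and edgeR called no tested gene as rising, and 43 and 45 without WT aTreg and WT rTreg. In those fits the lone library of a genotype was assumed to vary like the other pair. State calls that fell numbered 3, beside 5.44% of tested genes, and changed to 5 with library totals (6.37%), 10 with no level minimum (4.16%), 0 with DESeq2 (1.38%), 0 with state alone, where no tested gene was called, and 0 to 0 on leaving out a library. The state changes of Rrm2, Dtl and Cdc45 reversed in sign on leaving out KO-labelled rTreg (0.72, 0.67 and 0.47) or WT aTreg (0.41, 0.23 and 0.23), where state is fitted alone and the genotypes are unequal in number between states. Of the other genotype fits of single named members, 246 kept their side of the threshold and 62 lost it.

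The deposited variance-stabilised values, compressed at low counts, gave median ratios of 0.97 in aTreg and 0.77 in rTreg, 22 and 10 members at least 2-fold higher in aTreg and rTreg, and 0 at least 2-fold lower in aTreg of WT. Shares of all tested genes were not computed for these counts or for the 1.5-fold counts that follow, so neither has a background. At 1.5-fold 44 members were higher in rTreg and 12 lower in aTreg of WT. The cause of these shifts was not tested beyond the construction of each setting. No paired analysis was possible because each group was 1 library, so the shared replicate number marks no pair. Low counts limit Fen1, Gins1, Exo1 and Orc1 most.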
